A study of Mus musculus with 2 samples.

Results

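The cytokine receptor chains of T cells described here are 10 genes, Il2ra, Il2rb, Il2rg, Il7r, Il4ra, Il21r, Il18r1, Il10ra, Ifngr1 and Il6ra, chosen by the gene name that the array gives each probe. They hold 16 of the 41174 gene probes on the array: 4 for Il2ra, 3 for Il7r, 2 for Il6ra and 1 for each of the other genes. RNA of CD8+ T cells from Bcl11bF/F/dLck-iCre mice was compared with RNA of CD8+ T cells from wild type mice, all infected with Listeria monocytogenes-OVA, a bacterium that expresses ovalbumin, and taken at day 6 after infection. In the mutant mice the floxed gene for the transcription factor Bcl11b is deleted by a Cre recombinase under the distal Lck promoter, which is active in T cells. Cells were purified by negative selection to over 90%, so each preparation can hold some other cells, and the RNA was amplified before labelling. The data are 2 arrays, 1 per biological replicate, each with deficient RNA in the Cy5 colour and wild-type RNA in the Cy3 colour. Ages, strains and the number of mice behind each RNA are not given in the sources used here.

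Cytokine receptors are assembled from chains, and the chains are shared between cytokines. The alpha chain Il2ra, the beta chain Il2rb and the common gamma chain Il2rg form the receptor for interleukin 2, while Il7r, Il4ra and Il21r each pair with the same common gamma chain. In CD8+ T cells these receptors carry the signals for expansion, survival and memory through Jak kinases and STAT proteins. Il18r1, Il10ra, Ifngr1 and Il6ra bind the inflammatory and regulatory cytokines their names give, and each works with a partner chain. B cells and myeloid cells also carry several of these chains, among them Il10ra, Ifngr1, Il4ra and Il6ra.

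On these arrays 26% to 32.4% of gene spots were well above background per colour and array, and the negative control spots had medians of 326.5 and 406 in the wild-type colour and 968 and 707 in the deficient colour. All ratios are deficient over wild type on the log2 scale after loess, a correction of the colour bias along intensity, and each mean over both arrays carries its SD (n = 2). Bcl11b itself had ratios of -0.69 and -2.95 at its brighter probe (limma adjusted p = 6.55e-04). Its dimmer probe gave -1.09 and -2.03, with the deficient spot not well above background on either array. Where the deletion lies in the gene is not given in the sources used here, so neither probe tests it. In wild-type cells all 15 T-cell markers examined, Cd8a and Cd8b1 included, were well above background on both arrays. Their median ratio was -1.17, and 7 of them were called lower. All 19 monocyte and macrophage markers tested were called higher, with a median of 2.38. Over all genes 3.67% were called higher and 5.97% lower. Loess left the median of all genes at -0.22 on replicate 1 and -0.01 on replicate 2.

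Of the 10 receptor genes, 9 gave a signal that could be tested. Il10ra and Ifngr1 rose in deficient cells, Il2rg fell, and 6 did not pass the threshold of 0.05 on the limma adjusted p. Over all 9931 genes tested, 3.67% were called higher and 5.97% lower, against 2 and 1 of the 9 receptor genes. The median ratio of the 9 was 0.26 (-0.11 on replicate 1 and 0.97 on replicate 2), beside -0.12 over all genes. Il10ra, Ifngr1, Il2rb and Il18r1 lay above 0 on both arrays, Il2rg, Il6ra and Il21r below 0 on both, and Il4ra and Il7r changed sign between arrays. Over all genes 32.5% lay above 0 on both arrays and 41.5% below. The fit gave every gene the same standard error of 0.418, so a call means a mean ratio beyond 1.18 in size, and the 2 arrays limit the precision. The p-values and 95% intervals rest on the spread between the 2 arrays pooled over all genes. They do not reflect how closely the 2 arrays matched for a given gene. Both arrays had the same colour orientation, so an effect of dye on a gene cannot be told apart from an effect of genotype.

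**Figure D1:**
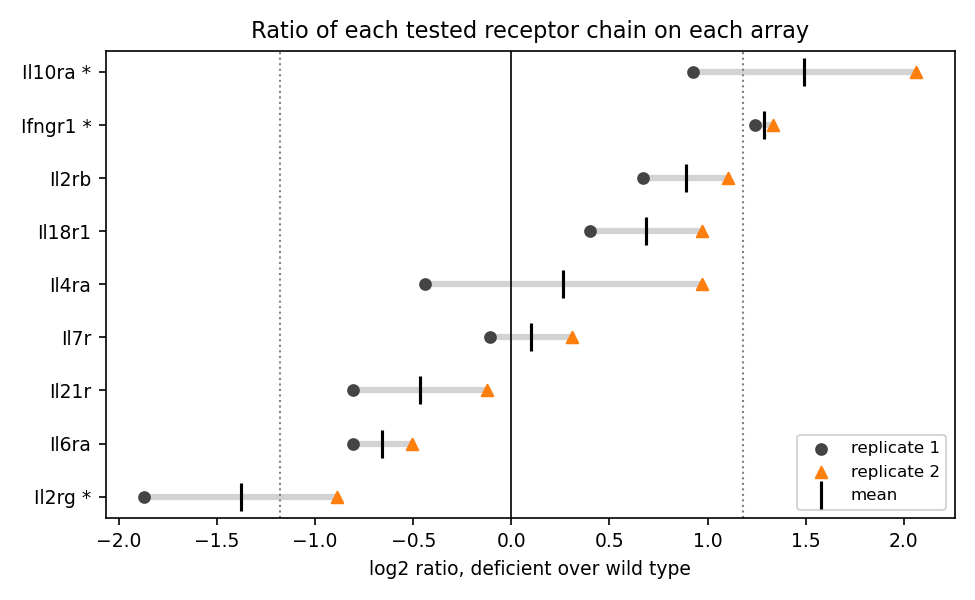
Log2 ratio, deficient over wild type, of the 9 receptor genes tested on replicate 1 (circles) and replicate 2 (triangles); the black bar is the mean of the 2 arrays, the dotted lines stand at the smallest ratio called, 1.18 in size, and an asterisk marks a gene with a limma adjusted p under 0.05. Il10ra (1.49) and Ifngr1 (1.29) lie highest and Il2rg (-1.38) lowest, and the points of Il4ra and Il7r fall on both sides of 0.

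The chains of the interleukin 2 receptor differed from one another. Il2ra, the alpha chain that raises affinity for interleukin 2 on activated T cells, was not well above background at any of its 4 probes (NM_008367, AF054581 and AK168113; chromosome 2, 11566086 to 11610719, build NCBI36) in either genotype on either array. Its wild-type spots read 284 to 373 on replicate 1 and 347 to 372 on replicate 2, and its deficient spots 877 to 1050 on replicate 1 and 616 to 752 on replicate 2. These lie around the negative control medians of 326.5, 406, 968 and 707, so no level and no fold are given for Il2ra.

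Il2rb, the chain shared by the receptors for interleukins 2 and 15, had a strong signal at its probe (NM_008368; chromosome 15, 78307934 to 78307993). Its wild-type spots read 5412 and 6036 and its deficient spots 5444 and 17465 on replicates 1 and 2. The log2 ratio was 0.67 and 1.11 (mean 0.89 ± 0.31, SD, n = 2; limma adjusted p = 0.178), which did not pass. Both arrays lay above 0, and the 95% interval of the ratio ran from 0.07 to 1.71. At an unadjusted p of 0.0337 it fell short after adjustment over all genes. With median centring in place of loess the mean was -0.02, so the size of the ratio depended on the normalization. Il2rb stayed above 0 in 14 of 15 other processing choices and passed in 1.

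Il2rg, the common gamma chain shared by the receptors of this family, was called lower in deficient cells. Its probe (NM_013563; chromosome X, 97468402 to 97468915, a span of 514 bases against 60 for most probes) read 1257 and 1557 in wild-type cells and 1106 and 1517 in deficient cells. The deficient spot was well above background on replicate 2 alone, and the wild-type spot on both arrays. On replicate 1 the deficient spot of 1106 stood beside a negative control median of 968. Probes were kept where 1 colour was well above background on both arrays. This one was kept through wild type alone, so its call is not independent of the filter. With both colours required it could not be tested. The log2 ratio was -1.87 on replicate 1 and -0.89 on replicate 2 (mean -1.38 ± 0.69, SD, n = 2; limma adjusted p = 0.0169), lower in deficient cells on 2 of 2 arrays. It stayed below 0 in 14 of 14 other processing choices and passed in 6. The 8 choices under which the call was lost include the Feature Extraction ratio (-2.68, adjusted p = 0.103) and the fit without background correction (-0.80, adjusted p = 0.0649). T-cell markers (median -1.17) stood lower in these deficient samples too, and whether Il2rg fell beyond them was not tested.

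The 250 bases before the RefSeq start of Il2rg and of Ifngr1 (build GRCm38.p6, chrX:101268256-101268505 on the minus strand and chr10:19591699-19591948 on the plus strand) are shown because these genes were called in opposite directions. Capitals mark matches, on either strand, to the ETS letters CCGGAAG, the GC box letters CCGCCC, the STAT letters TTCNNNGAA and the RUNX letters TGTGGT.
Il2rg: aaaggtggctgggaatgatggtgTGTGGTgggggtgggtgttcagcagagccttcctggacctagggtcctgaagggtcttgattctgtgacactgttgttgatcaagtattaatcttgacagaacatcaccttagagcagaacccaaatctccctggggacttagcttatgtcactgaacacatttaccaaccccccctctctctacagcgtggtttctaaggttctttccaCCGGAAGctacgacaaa
Ifngr1: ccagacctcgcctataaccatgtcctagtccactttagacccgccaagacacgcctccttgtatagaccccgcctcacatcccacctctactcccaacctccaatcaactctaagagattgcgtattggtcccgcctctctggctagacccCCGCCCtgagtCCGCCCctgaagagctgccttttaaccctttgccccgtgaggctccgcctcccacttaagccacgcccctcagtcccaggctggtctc

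The Il2rg window held 1 match to the ETS letters, beginning at -17 counted from the start, and 1 to the RUNX letters at -227, while the Ifngr1 window held 2 GC box matches and neither of those. Of 32851 windows of this length in RefSeq, 6.91% held the ETS letters, 32.7% the GC box, 7.02% the STAT letters and 14.0% the RUNX letters. Windows were matched for 8 of the 10 genes. They numbered 10, with more than 1 for Il18r1. Il2rg alone of these genes held the ETS letters, and Il4ra and Il21r held a GC box, with RUNX letters in Il21r as well. Il7r held the STAT letters. Il18r1 held them in its window at 40465756 to 40466005 and not in its other windows. The windows of Il2ra and Il6ra held no match to these letters. The motifs were picked after the ratios were known and the matches describe the windows alone.

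Of Il7r, Il4ra and Il21r, which each pair with the common gamma chain, limma called 0 of 3 in either direction (0 also at an unadjusted p under 0.05). Over all genes 3.67% were called higher and 5.97% lower, so 0 of 3 is near that background. Il2rb, described above, also works with the common gamma chain and had an unadjusted limma p of 0.0337. Il7r, the receptor for interleukin 7 that marks naive cells and memory precursors, was measured at its brightest probe (NM_008372; chromosome 15, 9450946 to 9451005), which read 2884 and 3624 in wild-type cells and 2374 and 6334 in deficient cells. Its log2 ratio was -0.11 and 0.31 (mean 0.10 ± 0.30, SD, n = 2; adjusted p = 0.908), with a 95% interval from -0.72 to 0.92. The other 2 probes of Il7r, at 9455913 to 9455972 and 9457540 to 9457599, were dim: wild-type spots were not well above background on either array, and the deficient spot of the nearer probe was so on replicate 2 alone. Their ratios were -1.25 and 0.11, and -0.93 and -0.46, and at spots this dim no direction is read from them.

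Il4ra, the alpha chain for interleukin 4, which also serves interleukin 13, read 2941 and 3608 in wild-type cells and 2083 and 9630 in deficient cells (NM_001008700; chromosome 7, 125368771 to 125368830). Its ratio was -0.44 on replicate 1 and 0.97 on replicate 2 (mean 0.26 ± 1.00, SD, n = 2; adjusted p = 0.741), the largest disagreement between arrays among the 9 genes. Il21r, whose ligand supports long-lived CD8+ responses, lies close to Il4ra on the same chromosome (NM_021887; 125423785 to 125423844) and read 1889 and 1986 in wild-type cells and 1508 and 2778 in deficient cells. Its ratio was -0.81 and -0.12 (mean -0.47 ± 0.48, SD, n = 2; adjusted p = 0.535), below 0 on both arrays and no further from 0 than its SD. The 95% intervals, -0.56 to 1.08 for Il4ra and -1.29 to 0.35 for Il21r, leave room for a change of over 2-fold in 1 direction.

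**Figure D2:**
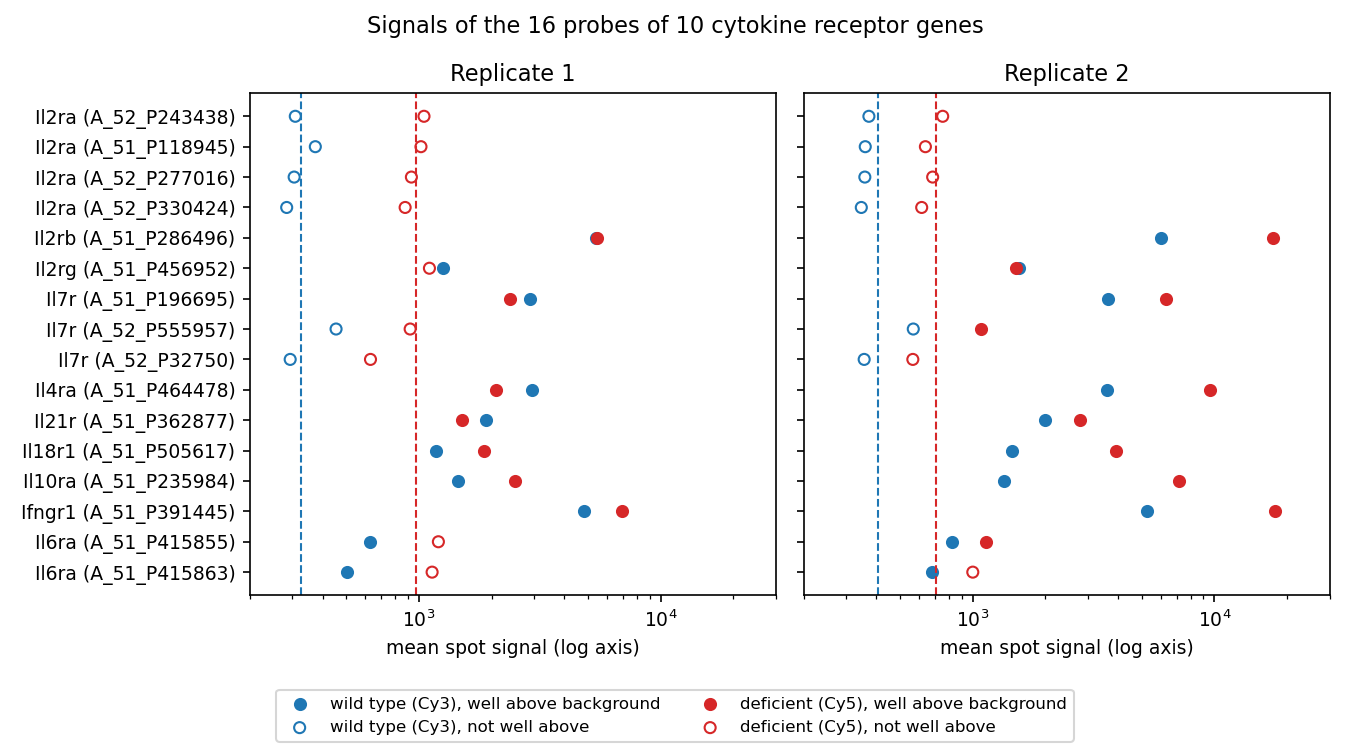
Mean spot signal on a log axis for each of the 16 probes, with wild-type RNA in blue and deficient RNA in red, on replicate 1 (left) and replicate 2 (right). Filled points were well above background, open points were not, and dashed lines mark the median of the negative control spots in each colour; the 4 Il2ra probes are drawn open near those lines on both arrays, while Ifngr1 and Il2rb reach 17795 and 17465 in deficient cells on replicate 2.

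Il10ra, the ligand-binding chain of the receptor for the anti-inflammatory cytokine interleukin 10, had the highest ratio of the 9. Its probe (NM_008348; chromosome 9, 45005149 to 45005208) read 1446 and 1344 in wild-type cells and 2496 and 7108 in deficient cells. The log2 ratio was 0.92 on replicate 1 and 2.06 on replicate 2 (mean 1.49 ± 0.81, SD, n = 2; limma adjusted p = 0.00804), higher in deficient cells on 2 of 2 arrays, and stood at the percentiles 91.3 and 98.2 of all genes on the 2 arrays. In 15 of 15 other processing choices it stayed above 0, and in 10 it passed. Over all 15 the limma adjusted p ran from 1.87e-04 to 0.385. The call was lost with the Feature Extraction ratio (1.57, adjusted p = 0.166) and with median centring (0.81, adjusted p = 0.385). Macrophage markers (median 2.38) and B-cell markers (median 1.69) stood higher in these deficient samples too, and their part in the rise of Il10ra was not tested.

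Ifngr1, the chain that binds interferon gamma, rose by nearly the same amount on both arrays. Its probe (NM_010511; chromosome 10, 19299533 to 19299592) read 4832 and 5266 in wild-type cells and 6909 and 17795 in deficient cells. The log2 ratio was 1.24 and 1.34 (mean 1.29 ± 0.07, SD, n = 2; limma adjusted p = 0.0282), higher in deficient cells on 2 of 2 arrays. Before any dye normalization the ratio of the same spots was 0.52 on replicate 1 and 1.76 on replicate 2, so the close match of the arrays came with loess. Ifngr1 stayed above 0 in 15 of 15 other processing choices and passed in 8. It fell short with the Feature Extraction ratio (1.29, adjusted p = 0.197), with the fitted background surface (1.29, adjusted p = 0.0616) and with median centring (0.37, adjusted p = 0.682). Whether Ifngr1 rose within T cells was not tested; the macrophage and B-cell markers named above stood higher alongside it.

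Il18r1, the ligand-binding chain for interleukin 18, through which inflamed CD8+ T cells can make interferon gamma without antigen, read 1175 and 1450 in wild-type cells and 1855 and 3914 in deficient cells (NM_008365; chromosome 1, 40445242 to 40445301). Its ratio was 0.40 and 0.97 (mean 0.69 ± 0.41, SD, n = 2; adjusted p = 0.331), above 0 on both arrays but short of the threshold, with a 95% interval from -0.13 to 1.51. Il6ra, the alpha chain for interleukin 6, carried by naive T cells, had 2 probes on chromosome 3 (NM_010559). The brighter one (89962748 to 89962807) read 627 and 824 in wild-type cells and 1204 and 1132 in deficient cells, with the deficient spot well above background on replicate 2 alone. Its ratio was -0.81 and -0.51 (mean -0.66 ± 0.21, SD, n = 2; adjusted p = 0.361). The second probe (89972496 to 89972555) gave -0.66 and -0.46. In deficient cells neither array had it well above background, which leaves a bound of 1.33-fold toward wild type. Its fitted ratio did not pass (adjusted p = 0.415 in the fit of single probes). A bound sets the brighter group against, per array, the dimmest signal still well above background or the dim spot's own signal, whichever is higher. It is taken per colour after loess and Aquantile, and dye bias can enter it. A bound carries no sampling error, so it sets no minimum for the true difference. Both probes of Il6ra leaned to wild type on both arrays, and neither passed.

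Each of these receptors needs a partner chain, and the partners were measured on the same arrays. Il10rb, the second chain of the interleukin 10 receptor, stood at 0.34 ± 0.56 (SD, n = 2; adjusted p = 0.671) beside 1.49 for Il10ra. Ifngr2, which completes the interferon gamma receptor, stood at 0.51 ± 0.54 (SD, n = 2; adjusted p = 0.496) beside 1.29 for Ifngr1. The difference between partners was not tested. Il6st, the signal-transducing chain gp130 that Il6ra needs, fell to -1.37 ± 0.46 (SD, n = 2; adjusted p = 0.0181), with the deficient spot well above background on 1 of 2 arrays. Il15ra, which presents interleukin 15 to Il2rb and Il2rg, stood at 0.32 ± 0.28 (SD, n = 2; adjusted p = 0.684). Il18rap, the partner of Il18r1, did not pass the filter on dim spots at either of its probes. Il13ra1, which can replace the common gamma chain beside Il4ra, was dim in wild type on both arrays. Its bound was 1.52-fold toward deficient cells, and its fitted ratio of 0.63 did not pass (adjusted p = 0.385). Il9r and Crlf2, 2 further relatives of this family, were respectively below background and at 0.51 ± 0.12 (SD, n = 2; adjusted p = 0.491).

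Among 43 other cytokine receptor chains of these families, 23 were tested, 3 rose and 5 fell, with a median ratio of 0.07, beside 3.67% higher, 5.97% lower and a median of -0.12 over all genes. The risen chains were Csf1r (3.25 ± 0.46), which binds the macrophage growth factor M-CSF, Csf2rb (1.60 ± 1.00), the beta chain for interleukin 3, interleukin 5 and GM-CSF, and Csf2ra (1.28 ± 1.22), the GM-CSF alpha chain. The arrays gave 0.89 and 2.31 for Csf2rb and 0.41 and 2.14 for Csf2ra, and of 15 other processing choices Csf1r passed in 13, Csf2rb in 10 and Csf2ra in 6. These 3 are carried mainly by myeloid cells, and 19 of 19 macrophage markers, Csf1r among them, rose too; their part was not tested. Of the other 2 Csf1r probes, 1 was well above background on 1 of 2 arrays in each genotype and gave -0.39 and 2.56, and the other, below background throughout, gave 0.18 and 0.36. The other Csf2rb probes were too dim to pass the filter and gave 0.29 and 0.50, and -0.26 and -0.20.

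The chains that fell were Il27ra, Il6st, Ifnar1, Il17ra and Il1rl2. Il27ra, the interleukin 27 receptor of T cells, had -1.35 and -1.42 (mean -1.39 ± 0.05, SD, n = 2; adjusted p = 0.0161). It was well above background in both genotypes on both arrays, and passed in 10 of 15 other processing choices. T-cell markers had a median of -1.17, and whether Il27ra fell beyond them was not tested. Ifnar1, a chain of the type I interferon receptor, stood at -1.36 ± 1.07 (SD, n = 2; adjusted p = 0.0194), with -2.11 on replicate 1 against -0.59 on replicate 2. Il17ra stood at -1.44 ± 1.82 (SD, n = 2; adjusted p = 0.0115), its arrays lying far apart at -2.73 and -0.15. Another Il17ra probe that passed the filter gave -1.67 and -0.002, and the mean of its probes was not called (limma adjusted p = 0.058). Of 14 other processing choices Il17ra passed in 5, Ifnar1 in 6, Il6st in 8 and Il1rl2 in 9. Il1rl2 was dim in deficient cells on both arrays, and its bound was 1.15-fold toward wild type. The limma adjusted p of 1.51e-04 belongs to its fitted ratio of -1.99, not to the bound. Its second probe, below background throughout, gave 0.13 and 0.34. Deficient spots of Il6st, Ifnar1 and Il17ra were well above background on 1 of 2 arrays. Of the 5 lower chains, Il27ra alone was measured fully on both sides. The others were kept through wild type alone, so their calls are not independent of the filter. With both colours required above background, 1 of 14 tested chains was called lower, beside 216 of 5824 genes.

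Ligands of the 10 receptors were mostly below background. Of 11 ligand genes, 2 were tested, and limma called 0 of them (0 also at an unadjusted p under 0.05). Over all genes 3.67% were called higher and 5.97% lower, so 0 of 2 is near that background. Il15 stood at 0.21 ± 0.13 (SD, n = 2), and Ifng, the ligand of Ifngr1, at -0.60 ± 1.48 (SD, n = 2). The arrays gave Ifng ratios of -1.64 and 0.44, with its deficient spot well above background on 1 of 2 arrays.

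Downstream of these receptors, 19 of 24 kinases, STATs and feedback inhibitors were tested, 1 rose and 2 fell, with a median of -0.25. Over all genes 3.67% rose and 5.97% fell with a median of -0.12, and at 19 genes these counts are near that background. Jak3, the kinase that binds the common gamma chain, fell like Il2rg. Its brighter probe gave -1.60 and -1.35 (adjusted p = 0.00901), but its deficient spot was dim on both arrays. The probe was kept through wild type alone, so its call is not independent of the filter. The bound, set here by the dim spot's own signal, was 2.78-fold toward wild type. A dimmer probe gave -1.12 and -0.63, and Jak3 passed in 7 of 14 other processing choices. Whether Jak3 fell beyond the T-cell markers (median -1.17) was not tested. Socs3, an inhibitor induced by interleukin 6 and related cytokines, fell with ratios of -1.47 and -1.40 (mean -1.44 ± 0.05, SD, n = 2; adjusted p = 0.0116); it was well above background in both genotypes and passed in 11 of 15 other processing choices. Socs7 rose by 1.19 ± 0.55 (SD, n = 2) and passed in 7 of 15. Jak1, a kinase partner of Il2rb and Il7r, stood at 0.31 ± 0.31 (SD, n = 2) at the brightest of its 3 probes. The other 2 gave -0.34 and 0.04, and -1.61 and -0.47, so no direction is given for Jak1. Stat5b, a main STAT of interleukins 2 and 7, stood at -0.78 ± 0.06 (SD, n = 2; adjusted p = 0.257) and did not pass.

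**Figure D3:**
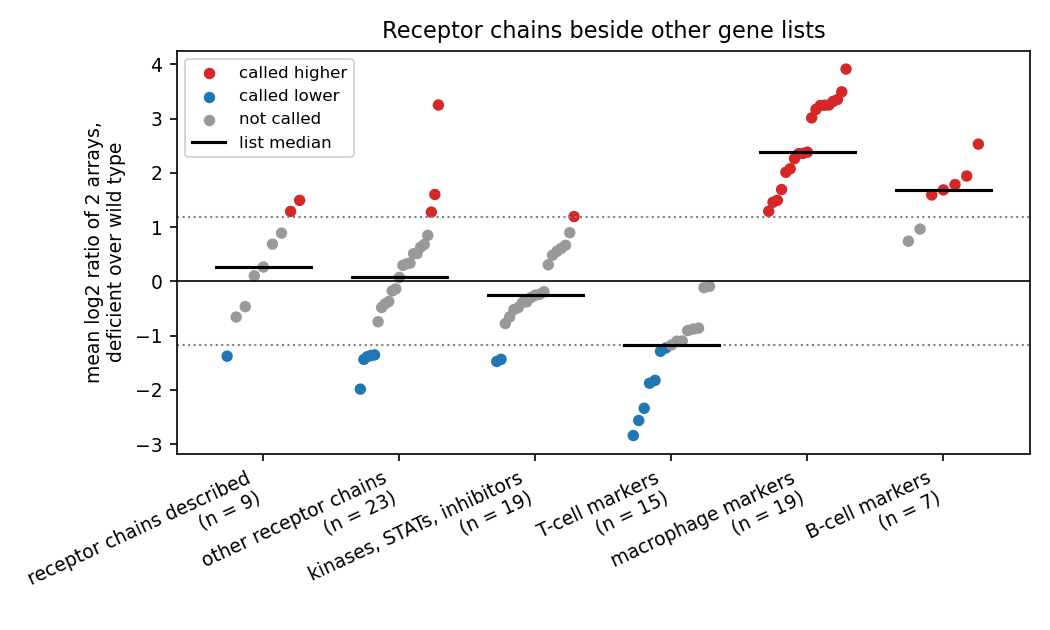
Mean log2 ratio of 2 arrays, deficient over wild type, for each tested gene of the 9 receptor chains, the 23 other receptor chains, the 19 kinases, STATs and inhibitors, and the markers of T cells (15), macrophages (19) and B cells (7); red is called higher, blue called lower, grey not called, the black line is each list's median and the dotted lines stand at 1.18 in size. The 9 receptor chains ran from -1.38 to 1.49, overlapping the T-cell markers (-2.84 to -0.09) and, at the upper end, the macrophage markers (1.29 to 3.91).

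Markers of several other cell types were higher in the deficient samples. The summed level of the macrophage markers, in normalized intensity per array, was 48640 and 35910 in wild-type cells and 318800 and 308300 in deficient cells. For the T-cell markers the sums were 220400 and 258600 in wild-type cells and 125500 and 89670 in deficient cells. Over all genes tested the sums were 25310000 and 25660000 in wild-type cells and 31240000 and 29360000 in deficient cells, so the total was also higher in deficient cells on both arrays. Of 7 B-cell markers tested, 5 rose, of 8 neutrophil markers 4, of 5 dendritic cell markers 4, of 7 NK-cell markers 4 and of 3 erythroid markers 3. Over all genes 3.67% were called higher and 5.97% lower. Ltf, Retnlg, Mpo and Ngp of the neutrophil markers did not pass. Neither did Xcr1 of the dendritic cell markers, whose arrays gave -1.76 and 0.99. These lists share genes between cell types: Fcer1g, Tyrobp and Fcgr3 of the 4 NK-cell calls are also myeloid genes, Eomes, Ncr1 and Nkg7 did not pass, and H2-Ab1, H2-Aa and Cd74 of the 5 B-cell calls are carried by other antigen-presenting cells too. Of 7 markers of CD4 helper and regulatory T cells, Cd4 was the one tested (0.30 ± 0.39, SD, n = 2), and Foxp3 did not pass the filter on dim spots. In RNA from whole preparations, fewer cells of a type and less RNA per cell cannot be told apart. The part of these cells in the ratios of the receptor chains was not tested.

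The calls on the receptor chains depended on how the ratios were made. Il10ra and Ifngr1 were both called with normexp and loess at either offset, without background correction, and with a stricter filter on dim probes, and neither with the Feature Extraction ratio, with median centring, without any filter or with separate channels in limma. Under the Feature Extraction ratio 0.503% of all genes were called higher and 0.655% lower. With both colours required above background, Il2rb joined the higher genes (0.89, adjusted p = 0.0369) while Il2rg and Il6ra could not be tested.

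**Figure D4:**
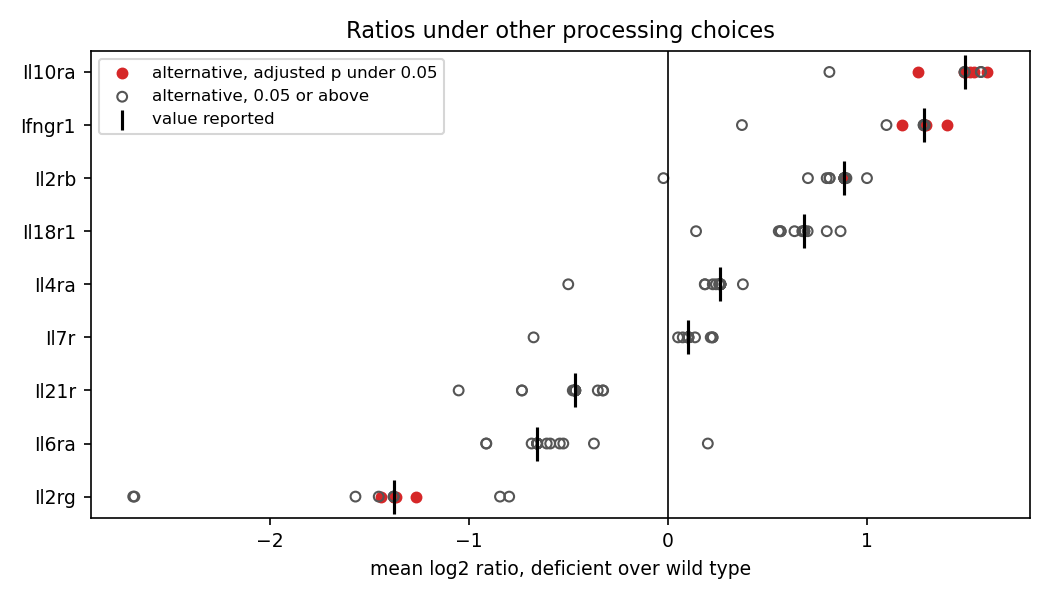
Mean log2 ratio, deficient over wild type, of each of the 9 receptor genes under 14 or 15 other processing choices; red points had a limma adjusted p under 0.05, open points did not, and the black bar is the value reported. Il10ra and Ifngr1 stay above 0 and Il2rg and Il21r below 0 throughout, while Il2rb, Il4ra, Il7r and Il6ra each cross 0 in 1 of them.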

How the data were processed

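Per the file headers, the authors scanned 2-colour Agilent mouse arrays with Feature Extraction 9.5.3.1 and deposited, per spot, intensity values (mean signal and median local background) and the log10 ratio, Cy5 to Cy3, which their value table repeats. Both arrays lie on 1 slide. Here normexp (offset 50) was run on mean and background signals, followed by loess within arrays with control spots at weight 0. Outlier spots were left out (255 and 195 gene spots), duplicate spots averaged, and probes kept where 1 colour was well above background on both arrays, leaving 12622 probes for 9931 genes. Each gene was read at its brightest probe by mean intensity. Names came from a RefSeq table of GRCm38.p6 (24375 probes by accession, 8727 by symbol, 8072 kept the array's name). Probe coordinates are the array's, build NCBI36; no genome of that build was used, so exons were not assigned. Testing of log2 ratios against 0 used limma 3.58.1, under R 4.3.3 (lmFit, eBayes, two-sided, Benjamini-Hochberg over all genes, 1 residual degree of freedom per gene). The prior degrees of freedom were infinite and the prior variance was 0.35. Genes named are the 10 receptor genes, and of each other list up to 4 with the smallest adjusted p and those called where 5 or fewer were; partner chains, kinases, ligands, second probes and other genes short of the threshold were named after their values were seen. Members and lists were chosen with earlier results of these data known. Alternatives changed the background, normalization, filter, probe choice, variance model (statmod 1.5.0 for separate channels) and arrays used.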

Additional observations from a re-analysis of the deposited data

How the results depend on the processing

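The receptor genes called higher numbered 2, and 1 with the fitted background surface and 1 without dye normalization, an alternative chosen after seeing the data; they numbered 0 with median centring, the Feature Extraction ratio, the deposited table, every probe kept however dim, and separate channels in limma (0, 2, 2, 5 and 3 at an unadjusted p under 0.05). The 1 called lower, Il2rg, became 0 in those 5, without background correction, with the fitted surface, with both colours above background and without dye normalization (2, 1, 1, 2, 2, 1, 1, 0 and 0 unadjusted). Over all genes 364 were higher and 593 lower. These became 293 and 189 without background correction, 233 and 176 with the fitted surface, 69 and 348 with median centring, 50 and 65 with the Feature Extraction ratio, 50 and 65 with the deposited table, 552 and 216 with both colours above background, and 572 and 47 without dye normalization. They became 0 and 0 without a filter (2373 and 2743 at an unadjusted p under 0.05) and 0 and 0 with separate channels (729 and 1250). Lower genes made up 62% of calls, 39.2% without background correction, 43% with the fitted surface, 83.5% with median centring, 51% with loess followed by centring on the median gene, 28.1% with both colours above background and 7.59% without dye normalization. Those scalings moved the median of all genes by at most 0.436, and by -0.291 with median centring. Values that changed sign were Il2rb (-0.022), Il7r (-0.68) and Il4ra (-0.50) with median centring, Il6ra (0.20) without dye normalization and Il1rl2 (0.23) without a filter, where another probe stood for the gene. On single arrays Il7r ranged from -0.11 to 0.31 and Il4ra from -0.44 to 0.97. The cause was not tested. Single arrays gave values with no test, so no counts. No paired analysis was possible because each array already pairs both genotypes. Signal over background limits Il2ra, Il6ra, Il2rg and the dim probes of Il7r.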

Other observations

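Outside the 16 probes, a cDNA probe that the array describes as an interleukin 7 receptor product but names by its accession, AK089361 (chromosome 15, 9473695 to 9473754, build NCBI36), was not well above background in either genotype and gave ratios of -0.85 and -0.22. Il18, the ligand of Il18r1, was well above background in each genotype on 1 of 2 arrays and gave ratios of -0.03 on replicate 1 and 2.00 on replicate 2, with no test. Csf2rb2, a close paralog of Csf2rb, was dim in wild-type cells and gave -0.38 and 1.78.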
